A study of Homo sapiens with 2 samples.

Results

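The 41 genes described here encode enzymes that attach ubiquitin or ubiquitin-like proteins to other proteins, or subunits of such enzymes. They were named in a list of E1 enzymes, cullins and E3 ligases with their subunits, and a peak was counted for a gene when its midpoint lay in the gene body as annotated by GENCODE 44. The genes held 139 of the 20499 peaks at which NUDT21 was mapped on RNA by eCLIP-seq. The cells were J-Gamma1, a cell line labelled as T-ALL, which stands for T-cell acute lymphoblastic leukemia. J-Gamma1 is a Jurkat subline that lacks phospholipase C-gamma1, an enzyme of T-cell receptor signalling, and the labels give no drug or further genetic change. The series had 1 library made with a NUDT21 antibody and 1 input library, and only the antibody library has a peak list that was analysed here. There was no replicate, so nothing below is tested between conditions, each interval covers counting error only, and the read depth is unknown. The amount of each RNA was not measured in this assay, so a gene with many peaks and a gene with much RNA cannot be told apart.

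Ubiquitin is passed along a relay of enzymes. An E1 activates it, an E2 carries it, and an E3 ligase brings the E2 to the protein to be marked. HECT ligases take the ubiquitin onto themselves before they hand it on, whereas RING and U-box ligases hold the E2 next to the substrate. Cullins are the scaffolds of the largest RING ligase family: one end binds a RING subunit, and the other end binds an adaptor with an exchangeable substrate receptor. NUDT21 is the subunit of cleavage factor I that recognises UGUA upstream of poly(A) sites and takes part in the choice between such sites, which sets the length of the 3'UTR. The study mapped NUDT21 on RNA to learn whether it contacts the transcripts whose poly(A) sites it affects.

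The sequences below come from the places that the results turn on, read from the hg38 reference on the strand of the gene and written as RNA. The first set is the 3' edge of HUWE1 coding exons whose peaks stood at 13 or more steps of Score, the height unit explained below, and ran over that edge. Each shows the last 20 bases of the exon and the first 10 of the intron in the canonical transcript. The GU that opens the intron is in capitals.
HUWE1 exon 78, chrX:53537546-53537575, minus strand: gaagaaaugaagaaucgauuGUaagggccc
HUWE1 exon 76, chrX:53538825-53538854, minus strand: gaaguuccuucgcuuugcagGUacagggaa
HUWE1 exon 52, chrX:53563736-53563765, minus strand: ugggaacaguacaauuauagGUgagagccc
HUWE1 exon 41, chrX:53584176-53584205, minus strand: uaaagaaaauaaaggcaaugGUauguacca
HUWE1 exon 33, chrX:53592388-53592417, minus strand: accagcaacaacugcaacagGUaggguacu
In exon 78 the base before the intron is U, so that the edge itself spells UGUA. The bases past this edge that the peak covers are exon in another annotated transcript of HUWE1. In exon 41 a UGUA lies a few bases inside the intron. The windows at exons 76, 52 and 33 hold none.

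The second set is from 3'UTRs. The first 4 lines come from low peaks of SMURF2, XIAP, BTRC and UBE4B, with the UGUA nearest the midpoint of the peak in capitals (the UBE4B line holds another UGUA just upstream, in lower case), and the last 4 are the centres of taller peaks of VHL, UBE3A and MDM2, which are shown because these peaks hold no UGUA.
SMURF2, chr17:64545333-64545362, minus strand, 2 steps: auuauucuaccuuUGUAaacaauuggcuaa
XIAP, chrX:123909998-123910027, plus strand, 2 steps: acuauuccuuuucUGUAuaaaguucacucu
BTRC, chr10:101556020-101556049, plus strand, 1 step: auggaaggccauuUGUAcaugucccuuggc
UBE4B, chr1:10180742-10180771, plus strand, 2 steps: cuagggguguaagUGUAucaggacuuaugu
VHL, chr3:10150284-10150313, plus strand, 12 steps: agcauaucguuuaauuuuaagaaggcauug
VHL, chr3:10150759-10150788, plus strand, 9 steps: auacgagaaaaucugcauguuugauuauag
UBE3A, chr15:25338496-25338525, minus strand, 6 steps: auaaagaaagauggaaggaagggagaaauu
MDM2, chr12:68841528-68841557, plus strand, 6 steps: aaccuagauuacaucaggcccuuuuucaca

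Of the 41 genes, 29 held a peak (70.7%, exact Clopper-Pearson 95% interval 54.5 to 83.9). The background was 33.5% of the 19342 protein-coding genes. The members were also long genes, with a median gene body of 105 kb against 26.8 kb in the other protein-coding genes and a median of 20 exons against 8, and the part of length in these shares was not tested. A 3'UTR peak was found in 18 members (43.9%, 28.5 to 60.3) against a background of 14.1% of genes with a 3'UTR. A coding sequence (CDS) peak was found in 10 members (24.4%, 12.4 to 40.3) against 10.4%. An exonic peak of any kind was found in 24 members (58.5%, 42.1 to 73.7) against 22.7%. No peak was found in UBA1, UBA3, CUL2, SKP1, RBX1, SKP2, KEAP1, HERC2, NEDD4L, SMURF1, CBLB or STUB1.

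**Figure D1:**
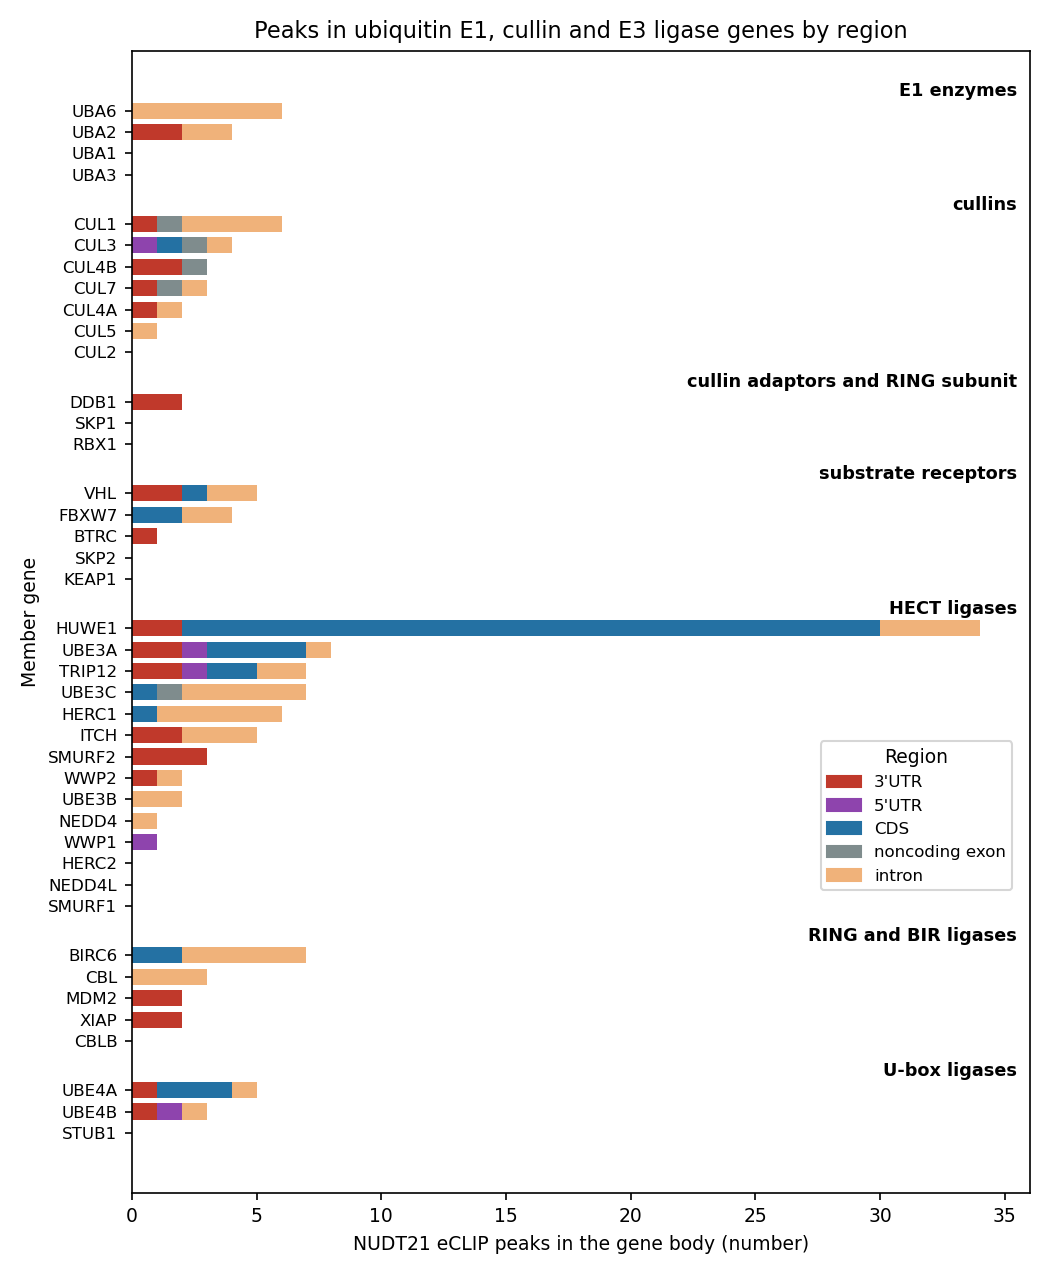
Number of peaks in the body of each member gene (horizontal axis), stacked by the region of the peak midpoint, with genes grouped by class and ordered by number within it. HUWE1 stands apart with 34 peaks, the next gene, UBE3A, has 8, and 12 genes have none.

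The height of a peak is given here in steps of its Score, a deposited value whose smallest spacing was 0.228. Peaks of members ranged from 1 to 17 steps with a median of 4, and 44 of the 139 stood at 1 step. In the other protein-coding genes the median was 3, and 6204 of 19503 peaks stood at 1 step. Here and below, a peak in several overlapping genes was counted once for each of these genes, and the distinct peaks numbered 18524. Member peaks that also lay in another protein-coding gene are among them. Fold enrichment over the local background, the authors' own ratio, ran from 1.17 to 4.05. The authors' p-values ran from 3.86e-05 to 0.0469, but their false discovery rate was 1 for all 139 peaks. Peaks of 5 or more steps numbered 67 and lay in 16 members (39.0%, 24.2 to 55.5), where the background over protein-coding genes was 14.4%.

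The peaks of members lay in introns in 54 cases (38.8%, 30.7 to 47.5), in CDS in 45 (32.4%, 24.7 to 40.8) and in 3'UTRs in 30 (21.6%, 15.1 to 29.4). Another 5 lay in 5'UTRs and 5 in noncoding exons. Among the peaks of the other protein-coding genes, assigned in the same way, 41.6% lay in introns, 22.4% in CDS and 29.2% in 3'UTRs. The CDS share of the members rested on HUWE1: without it, 17 of 105 peaks lay in CDS (16.2%, 9.72 to 24.7) and 28 in 3'UTRs (26.7%, 18.5 to 36.2). Each of these intervals holds the share of the other genes. The regions differed in height: the median was 9 steps in CDS, 7 in 5'UTRs, 6 in 3'UTRs and 1 in introns and in noncoding exons. Without HUWE1 it was 8 in CDS and 4.5 in 3'UTRs. In the other genes it was 8 in CDS, 4 in 5'UTRs, 7 in 3'UTRs, 1 in introns and 2 in noncoding exons.

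**Figure D2:**
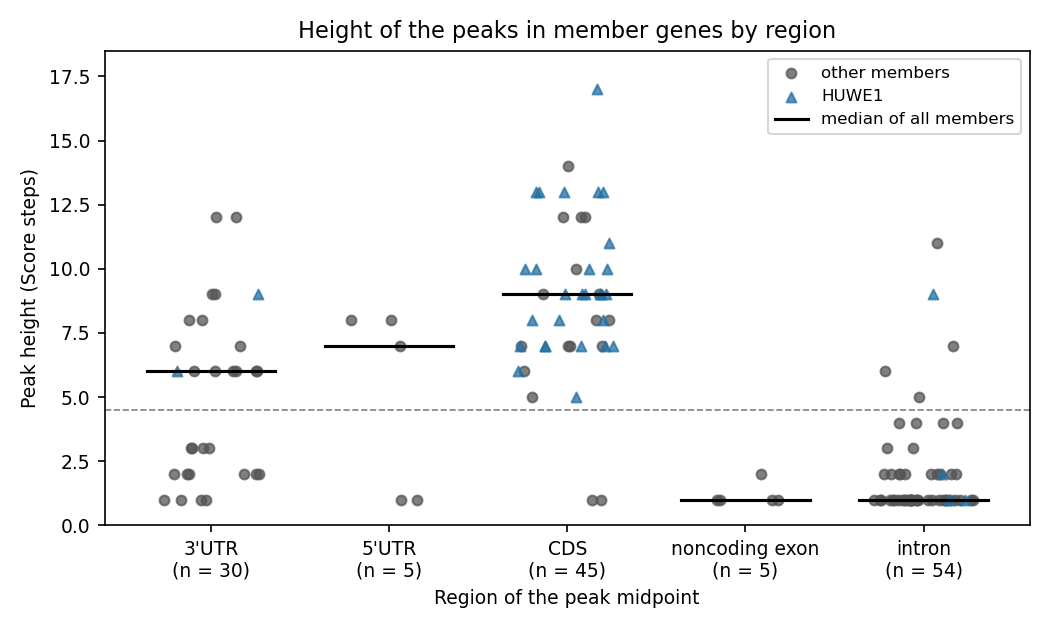
Height of each peak in a member gene, in Score steps (vertical axis), by region (horizontal axis). Triangles are HUWE1, circles the other members, black lines the median over all members, and the dashed line separates 4 steps from 5. Of the 67 peaks above the line, 43 lie in CDS, and intron peaks lie mostly at 1 step.

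Of the 67 tall peaks, 43 were in CDS (64.2%, 51.5 to 75.5), against 40.0% (39.0 to 41.1) of the tall peaks of other genes. HUWE1 supplied most of them. Without HUWE1 the share was 15 of 36 (41.7%, 25.5 to 59.2), and its interval held the value of the other genes. The 72 peaks of 1 to 4 steps lay in introns in 68.1% of cases (56.0 to 78.6), against 66.6% (65.7 to 67.5) in the other genes.

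HUWE1, a giant HECT ligase that acts on many substrates in growth control and DNA repair, held 34 peaks, the 8th largest number of any protein-coding gene. The gene lies at chrX:53532096-53686752 on the minus strand and has 84 exons. Its coding peaks, which are peaks in CDS of any transcript, numbered 29 and lay in 28 different exons, with a pair in exon 48. By coding peaks it ranked 5th of the 19342 genes, tied with 1 other gene. Of the 2642 genes with a coding peak, the median had 1.

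The 29 coding peaks of HUWE1 were all of 5 or more steps. The tallest, at chrX:53537531-53537632 over the end of exon 78, reached 17 steps with a fold enrichment of 4.05 and was the tallest peak of any member. Peaks of 13 steps followed in exons 33, 41, 52, 56 and 76, with fold enrichments between 3.05 in exon 56 and 3.61 in exon 41. The remaining coding peaks stood between 5 steps, in exon 21, and 11 steps, in exon 9. The peaks were spread along most of the message and were absent from exons 1 to 5 and from the 12 exons from 57 to 68. Exons with a coding peak had a median length of 164.5 nt, and the other 54 internal exons had a median of 132 nt.

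The other giant members held few coding peaks. HERC1, a HECT ligase with domains like those of an exchange factor for small GTPases, has a CDS of 14583 nt and held 1 coding peak, of 1 step, in exon 75. BIRC6, an inhibitor of apoptosis with its own ubiquitin-conjugating domain, has a CDS of 14571 nt and held 2, of 1 step in exon 15 and 5 steps in exon 52. HERC2, which acts in the response to DNA damage, has a CDS of 14502 nt and held none. HUWE1 with 13122 nt had 2.21 coding peaks per kb of CDS, and the other 3 together had 0.0687. HUWE1 was singled out for its number of peaks, so these densities are a description and no test of a difference. The RNA levels of these genes were not measured here, and their part in the densities was not tested. HERC2 has 14 of the 29 annotated pseudogenes named after members, none of which held a peak, and the fate of reads that map to several copies was not tested.

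**Figure D3:**
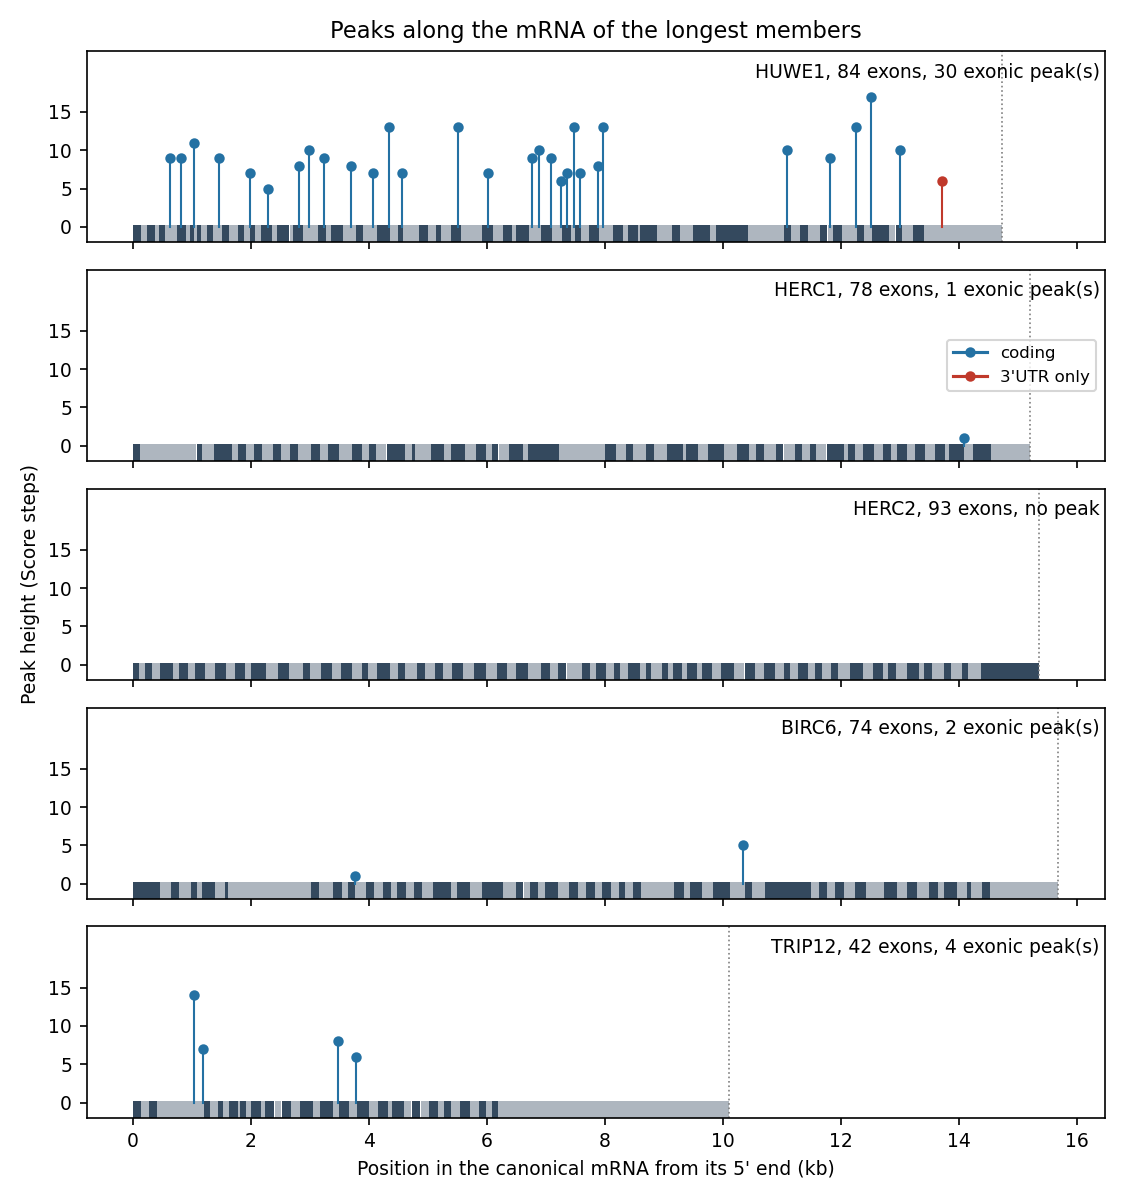
Height in Score steps (vertical axis) of each exonic peak by the position of its midpoint in the canonical mRNA (horizontal axis, kb) for HUWE1 and 4 other long members. Blue marks coding peaks, red a 3'UTR peak, the bars at the base alternate between exons, and the dotted line is the end of the mRNA. HUWE1 carries 30 such peaks, and HERC1, HERC2, BIRC6 and TRIP12 carry 1, 0, 2 and 4.

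Many of the HUWE1 peaks sat at the downstream edge of their exon. Of the 29, 22 had their midpoint nearer the 3' edge than the 5' edge of the exon (75.9%, 56.5 to 89.7), and 17 ended within 10 nt of its 3' edge or ran past it (58.6%, 38.9 to 76.5). Those that crossed the 3' edge numbered 15 and reached at most 35 nt past it. One of them, at exon 78, had all of its 102 nt within annotated exons when every transcript was counted. None of the 29 came within 10 nt of the 5' edge (0%, 0 to 11.9). Of the 26 coding peaks in internal exons of the other members, 22 lay nearer the 3' edge (84.6%, 65.1 to 95.6) and 15 at or past the 3' edge (57.7%, 36.9 to 76.6). At the 5' edge there were 3 of the 26, all past it, in UBA2, CUL1 and CUL7 (11.5%, 2.45 to 30.2). In the other protein-coding genes, 66.5% (65.1 to 67.8) of 4801 such peaks lay nearer the 3' edge and 44.5% (43.1 to 45.9) at or past the 3' edge, and 10.3% (9.44 to 11.2) at or past the 5' edge. These values all lie within the intervals of HUWE1. Over all 55 such peaks of members, 80.0% (67.0 to 89.6) lay nearer the 3' edge, and 66.5% falls just below that interval. Of the 50 that were tall, 80.0% (66.3 to 90.0) lay nearer the 3' edge, against 69.4% (68.0 to 70.8) of tall peaks in the other genes, which the interval of the members holds. Nothing particular to the members is read from these shares.

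**Figure D4:**
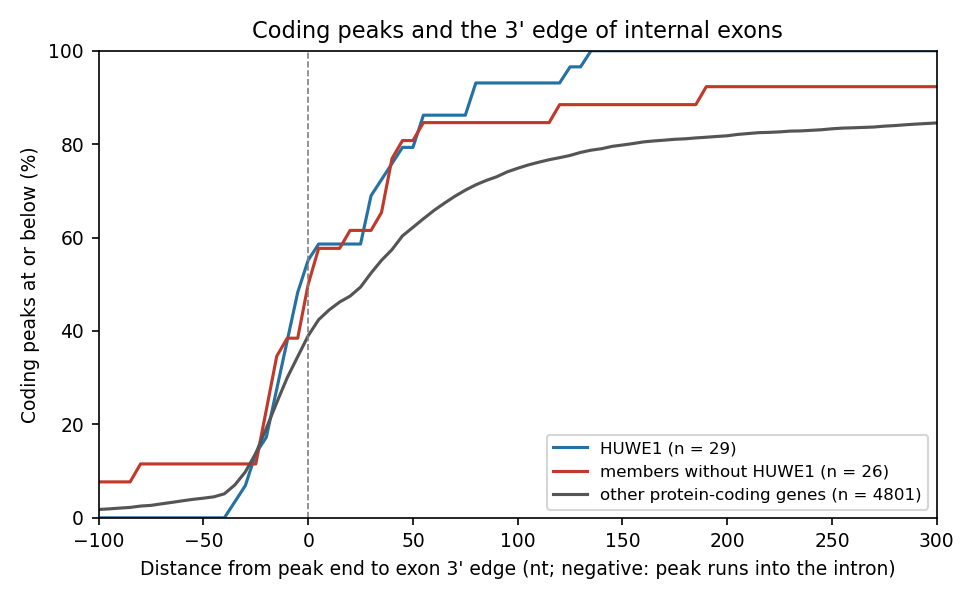
Share of coding peaks in internal exons (vertical axis, %) whose end lies at or below a given distance from the 3' edge of the exon (horizontal axis, nt, negative where the peak runs into the intron). Lines are HUWE1, the other members and the other protein-coding genes. At 10 nt the lines of the members stand at 58.6% and 57.7% and that of the other genes at 44.5%.

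UGUA was about as frequent in these coding peaks as in those of other genes. Of the 29 in HUWE1, 6 held UGUA on the gene strand, as did 7 of the 28 coding peaks of the other members. Together this was 22.8% (12.7 to 35.8), and in the other genes 21.2% (20.2 to 22.2) of coding peaks held it. In the CDS of HUWE1 the density was 2.90 UGUA per kb inside peaks and 2.21 outside, a ratio of 1.31 (0.439 to 3.27). The only peak of HUWE1 that lay in a 3'UTR alone stood at 6 steps and held none.

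UBE3A, the HECT ligase lost in Angelman syndrome, held 8 peaks, of which 7 were of 5 or more steps. In CDS these stood at 12 and 7 steps in exon 6, at 10 in exon 5 and at 6 in exon 9. One further peak, of 7 steps, lay at the start of exon 13 and is coding in the canonical transcript, and a 3'UTR peak of 6 steps lay in the same exon. A 5'UTR peak of 8 steps and an intron peak of 1 step made up the rest. All but the 5'UTR peak lay also in SNHG14, a long noncoding RNA gene on the opposite strand, and because the list gives no strand these 7 peaks cannot be placed on one RNA or the other.

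TRIP12, a HECT ligase of the ubiquitin fusion degradation pathway, held 7 peaks. The tallest reached 14 steps in exon 4, with a fold enrichment of 3.13, and a second peak of 7 steps lay at the end of the same exon. Peaks of 8 steps in exon 22 and 6 steps in exon 24 were coding in the canonical transcript and 3'UTR in another, and both ran 16 nt past the 3' edge. UBE3C, which extends ubiquitin chains at the proteasome, held 7 peaks, of which only the one in exon 10, at 9 steps, was tall, and it ended 1 nt past the exon.

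The remaining HECT genes had mainly low peaks. ITCH, a ligase of the NEDD4 family that restrains T-cell activation, held 5 peaks of at most 5 steps. The other members of that family held few: SMURF2, which targets components of TGF-beta signalling, had 3 peaks, WWP2 had 2, and WWP1 and NEDD4 had 1 each, all of 1 or 2 steps. UBE3B, a ligase linked to mitochondria, had 2 intron peaks of 1 step. NEDD4L, which controls sodium channels, and SMURF1, the relative of SMURF2, had none.

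Among the U-box ligases, UBE4A and UBE4B, which lengthen ubiquitin chains, differed in where their peaks fell. UBE4A held coding peaks of 9, 12 and 8 steps in exons 6, 9 and 19 and a 3'UTR peak of 6 steps. UBE4B held a 5'UTR peak of 7 steps, an intron peak of 7 steps that overlapped 146 nt of an exon, and a 3'UTR peak of 2 steps. STUB1, the chaperone-bound ligase CHIP, held none.

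VHL, the receptor that marks hypoxia-inducible factor for destruction, has 3 exons, and 4 of its 5 peaks stood at 9 or more steps. One of 12 steps lay in the coding part of exon 1, and one of 11 steps followed across the exon's end, with 12 of its 57 nt in the exon. Peaks of 12 and 9 steps lay in the 3'UTR, at chr3:10150273-10150324 and chr3:10150745-10150801. A gene on the opposite strand also spans both 3'UTR peaks.

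The other substrate receptors had fewer peaks. FBXW7, an F-box protein that directs the destruction of several growth regulators and is often mutated in T-ALL, held 2 coding peaks of 7 steps each, both in exon 4, beside 2 intron peaks of 1 step. BTRC, the F-box protein that recognises phosphorylated beta-catenin, held 1 3'UTR peak of 1 step. SKP2, the F-box protein for the cell cycle inhibitor p27, and KEAP1, the sensor of oxidative stress, held none.

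The 7 cullins together held 19 peaks, in 6 genes, and 4 of these peaks were tall. CUL3, the scaffold for BTB-domain receptors such as KEAP1, had peaks of 8 steps in exon 6 and in the 5'UTR. CUL1, the scaffold of the SCF ligases, had 6 peaks, of which the one over the start of exon 8 reached 7 steps. CUL4A and CUL4B, which work with DDB1, had 2 and 3 peaks with at most 6 and 3 steps. CUL7 had 3 peaks and CUL5 had 1, none above 2 steps, and CUL2, the scaffold that carries VHL, had none.

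Of the cullin adaptors, DDB1 held 2 tall peaks, of 12 steps in exon 4 and 8 steps in exon 18, both coding in the canonical transcript and 3'UTR in another. SKP1, the adaptor that joins F-box proteins to CUL1, and RBX1, the RING subunit, held none. RBX1 has the shortest canonical CDS of the members, at 324 nt.

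The 4 E1 enzymes held 10 peaks, and all 10 were in UBA2 and UBA6. UBA2, the catalytic subunit of the SUMO-activating enzyme, had a peak of 9 steps that ended exactly at the 3' edge of exon 5. UBA6, an E1 for ubiquitin and FAT10, had 6 intron peaks of 1 to 4 steps. UBA1, the main E1 of ubiquitin, and UBA3, which activates NEDD8 for the cullins, had none.

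Among the RING and BIR ligases, MDM2, the ligase of p53, held 2 peaks of 6 steps. One lay in exon 9, within CDS, and the other in the 3'UTR of exon 11. XIAP, an inhibitor of caspases, held 2 low peaks, of 3 and 2 steps, in its long 3'UTR. CBL, which marks activated receptor tyrosine kinases, held 3 intron peaks of 1 or 2 steps, and CBLB, its relative that restrains T-cell receptor signalling, held none. The 7 peaks of BIRC6 included an intron peak of 6 steps with 67 nt in an exon.

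The 30 3'UTR peaks of the members were of different kinds. For 12 of them the midpoint was CDS in another transcript of the gene, and in 11 of these 12 the 3'UTR came only from transcripts annotated as targets of nonsense-mediated decay. The other 18 peaks, in 13 genes, were 3'UTR alone, and 15 of them, in 10 genes, lay in the 3'UTR of the canonical transcript. The 3 that did not were in CUL4A, CUL4B and WWP2. In the other protein-coding genes, 3901 of the 5686 3'UTR peaks were 3'UTR alone. The share of all protein-coding genes with such a peak was not counted. The part of nonsense-mediated decay transcripts in the peaks of the other genes was not counted either. Nothing particular to the members is therefore read from these counts.

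Among the 18 peaks that were 3'UTR alone, UGUA was found in the low peaks and not in the tall ones. The 7 peaks of 5 or more steps were the pair in VHL and those in CUL4A, UBE3A, HUWE1, MDM2 and UBE4A, and 0 of the 7 held UGUA. Of the 11 peaks of 1 to 4 steps, 9 held it, with 20 sites in all. The low peaks were also longer, with a median of 310 nt against 59 nt and a total of 2814 nt against 516 nt, and the part of length in the difference was not tested. In the other protein-coding genes, UGUA was also more frequent in low peaks: among peaks that were 3'UTR alone, 39.7% (37.7 to 41.8) of the tall ones and 62.5% (60.1 to 64.9) of the low ones held it. The exact interval of the members for the 11 low peaks, 48.2 to 97.7%, holds the latter value, and that for the 7 tall ones reaches from 0 to just above the former. Of the 7 tall peaks, 5 lay in an annotated gene on the opposite strand, and 1 held UGUA on that strand. None of the 11 low peaks lay in such a gene, yet 8 of them held UGUA on the opposite strand. Of the 5, the pair in VHL lay in the same gene. How often such peaks of the other genes lie in an opposite-strand gene was not counted, so nothing particular to the members is read here.

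**Figure D5:**
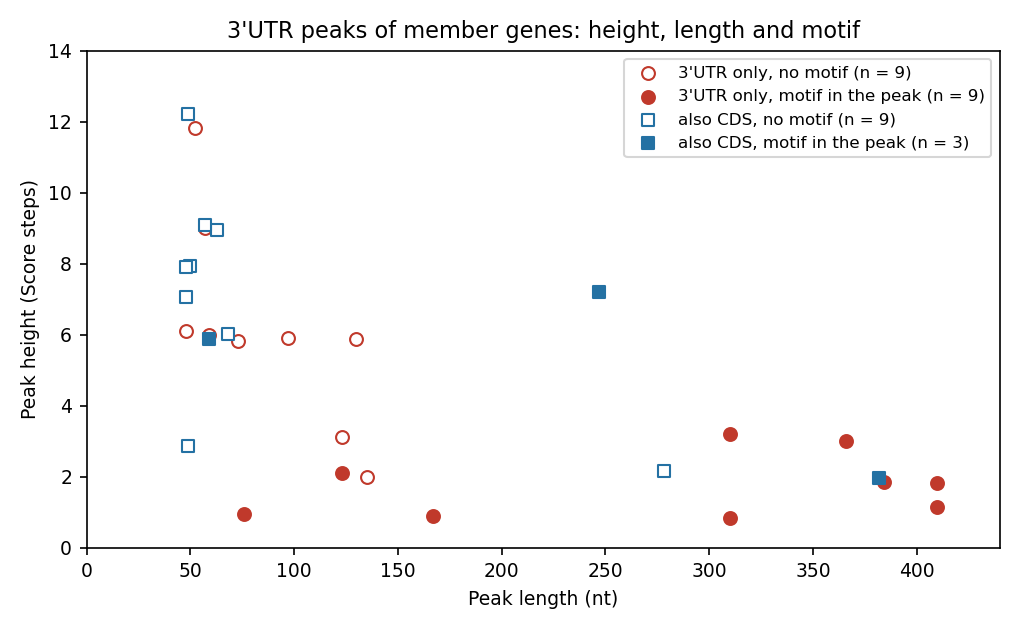
Height in Score steps (vertical axis, points moved slightly up or down so that they do not hide each other) and length in nt (horizontal axis) of the 30 3'UTR peaks of members. Circles are 3'UTR alone and squares also CDS in another transcript, and filled symbols hold the UGUA motif on the gene strand. The 7 circles of 6 or more steps are all open, and 9 of the 11 lower circles are filled.

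Over all 30 3'UTR peaks, 12 held UGUA (40.0%, 22.7 to 59.4), and 40.8% (39.5 to 42.1) did in the other genes. The 30 peaks held 25 UGUA sites on the gene strand and 23 on the opposite strand. The 3'UTR peaks of the other genes held 3879 and 3020. Density was taken over the 3'UTRs of the members with a 3'UTR peak. The parts covered by a peak assigned to any region held 21 UGUA sites in 4451 nt. This was 4.72 per kb, against 5.51 per kb in the rest of the same 3'UTRs. The ratio was 0.856 (0.526 to 1.32), and in the other genes it was 0.927 (0.897 to 0.958). Restricted to peaks of 5 or more steps, the ratio in the members was 0.178 (0.00448 to 0.999). The interval over all heights holds 1, so a difference in UGUA density between the peaks and the rest of these 3'UTRs was not shown.

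Low peaks in the 3'UTRs of SMURF2, XIAP, ITCH, BTRC and UBE4B held the UGUA sites shown above or sites like them. SMURF2 had 3 peaks of 1, 1 and 2 steps in its last exon, with 3, 2 and 3 sites. The pair of 410 nt began exactly 476 nt apart, and so did the pair of 123 nt in XIAP, of which only the downstream peak held UGUA. In all, 20 member peaks had a neighbour that began exactly this far away, and 19 of the 20 were of 4 or fewer steps. The distance was taken from the whole list, as the most frequent one between neighbouring starts from a set minimum upward. The share of peaks in other genes with such a neighbour was not counted. Of all 139 member peaks, 72 were of 4 or fewer steps. The fixed distance thus went with low height among the member peaks, and its part in these peaks was not tested.

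Few of the peaks lay near annotated ends of the messages. A transcript end of the gene lay within 150 nt of the midpoint in 4 of the 30 3'UTR peaks (13.3%, 3.76 to 30.7), against 18.1% (17.1 to 19.1) in the other genes, and the median distance was 1023 nt against 829 nt. Of the 18 peaks that were 3'UTR alone, 1 lay this near an end (5.56%, 0.141 to 27.3), against 20.1% (18.8 to 21.4) in the other genes. At the canonical ends of the 41 members, 0 had a peak midpoint within 150 nt, and over all 19360 such ends the share was 1.27%. Of the 41 ends, 29 had UGUA in the last 100 nt, a larger share than the 52.5% of all ends. AAUAAA, the main poly(A) signal, lay in the last 50 nt of 24, against 64.8% of all ends. AAUAAA lay inside a 3'UTR peak in 5 cases, 1 each in BTRC, UBE3A, ITCH, SMURF2 and UBE4B.

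The 5 5'UTR peaks were in CUL3 and UBE3A at 8 steps, UBE4B at 7, and TRIP12 and WWP1 at 1. They were rich in G and C, between 61.9% and 82.5%, whereas the median over all member peaks was 42.9%. The 5'UTR peaks of the other genes were also rich in G and C, with a median of 61.5%. Only the UBE4B peak held UGUA, and 19.4% (16.4 to 22.8) of the 5'UTR peaks of the other genes did.

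The 54 intron peaks were low and long, with a median of 301.5 nt, and 40 of them held UGUA (74.1%, 60.3 to 85.0). The share in intron peaks of other genes was 60.6% (59.5 to 61.7), with a median length of 256 nt. Only 5 intron peaks reached 5 steps, 1 each in VHL, HUWE1, UBE4B, BIRC6 and ITCH. All 5 overlapped an exon of their gene, by between 12 nt in VHL and 146 nt in UBE4B. In the other genes 39.8% (36.8 to 42.9) of such peaks overlapped one, and with 5 peaks the interval of the members reaches from 47.8 to 100. Of the 49 lower intron peaks of members, 14 overlapped an exon (28.6%, 16.6 to 43.3), against 20.9% (19.9 to 21.8) in the other genes.

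Partner genes outside the list were counted in the same way, against the 33.5% of protein-coding genes with any peak. Of 22 genes for NEDD8 conjugation, the COP9 signalosome and related factors, 11 held a peak, and 4 of their 13 peaks were in introns. CAND1, which exchanges the substrate receptors of cullins, had 2 coding peaks of up to 9 steps. GPS1, a signalosome subunit, had 1 coding peak of 10 steps. DCUN1D3, which assists NEDD8 transfer, had 1 coding and 1 3'UTR peak of 1 step each. Of 16 genes of the anaphase-promoting complex, a large RING ligase of mitosis, 6 held a peak, a share near that background, with 9 of the 14 peaks in introns, where the other protein-coding genes had 41.6% of theirs. ANAPC13 and CDC16 had 2 exonic peaks each, of up to 9 and 7 steps.

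Markers of the labelled cell type were read against the 22.7% of protein-coding genes with an exonic peak. Exonic peaks were found in 3 of 8 T-lineage markers, CD3E, CD247 and PTPRC, and the other 5, CD2, CD3D, CD3G, CD7 and LCK, had no peak. They were found in 0 of 5 B-lineage and 0 of 5 myeloid markers, and with so few genes and this background the counts neither bear out the label nor go against it.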

How the data were processed

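Peaks were called by the authors on 1 NUDT21 eCLIP-seq library of J-Gamma1 cells. Their methods and processing notes name trimming with fastp, correction and removal of duplicates by unique molecular identifier, removal of ribosomal RNA, mapping to hg38, and MACS2 with background windows set to 1000 (small) and 10000 nt (large). A q cutoff of 0.05 is stated there, which the deposited FDR of the member peaks does not meet. The aligner for these reads and the use of the input as control were not given in the sources used here, and the input library was not analysed here. For each peak the deposited list gave a Score (whole multiples of a step, treated as a pileup signal of unstated scaling), a fold enrichment (a ratio to local background), a p-value and an FDR (q-value), without strand.

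Midpoints were placed in gene bodies of GENCODE 44. The region came from the gene's own transcripts, where 3'UTR took precedence over 5'UTR, then CDS, other exons and introns. A gene of either strand can take a peak. Transcript ends were those of transcripts with a 3'UTR and a complete end. Readthrough genes were left out of the protein-coding genes. The 20 symbols used more than once were left out of counts of genes and of UGUA densities. They stayed in the peaks of the other genes. Shares have exact Clopper-Pearson 95% intervals and density ratios exact conditional binomial intervals, for counting error only. No p-value was computed, since peaks and genes are not replicates. UGUA and AAUAAA were searched on the gene strand, unless the opposite strand is named. All 41 members are named, with partner lists by counts and at most the 3 genes with most exonic peaks of each. The members and lists were chosen with earlier results of these data known. The counting was tested on simulated data. The work used pysam 0.24.0, scipy 1.17.1, pandas 2.3.3, numpy 2.4.6 and matplotlib 3.10.9 under Python 3.11.15.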

Additional observations from a re-analysis of the deposited data

How the results depend on the processing

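The counts of peaks, genes with a peak and genes with a 3'UTR peak, the median height and the 3'UTR share were recomputed under alternatives. So were, for 3'UTR peaks, the share with UGUA, the UGUA density ratio and the share within 150 nt of an end. Of the 82 values, 61 stayed within 1.5 times the count or within the 95% interval of the median, share or ratio. Other results were not recomputed, apart from the share of coding peaks given below. With an FDR under 0.05, 0 peaks, 0 genes and 0 genes with a 3'UTR peak remained. Peaks of 5 or more steps gave 67 peaks in 16 genes, 10 of them with a 3'UTR peak, a median of 8 steps, UGUA in 12.5% of 3'UTR peaks and a UGUA density ratio of 0.178. A fold enrichment of at least 2 gave 62 peaks in 16 genes, 10 with a 3'UTR peak, a median of 8.5 steps, UGUA in 7.69% and a ratio of 0. The 3'UTR share of peaks fell to 12.9% with CDS in precedence, to 12.9% without nonsense-mediated decay transcripts and to 10.8% with the canonical transcript only. The latter left 10 genes with a 3'UTR peak and 0% of 3'UTR peaks within 150 nt of an end. Peaks extended by 50 nt held UGUA in 70.0%. The cause of these shifts was not tested. Chosen after the data were seen, the share of coding peaks nearer the 3' than the 5' edge of their exon was 80.0% in the members, 84.6% without HUWE1 and 80.0% for peaks of 5 or more steps. No paired analysis was possible because there was 1 library with a peak list. The depth is unknown, so a gene without a peak was not shown to lack NUDT21 contacts.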
